A study of Mus musculus with 6 samples.

Results

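Expression of the NF-kB subunits and their feedback inhibitors was compared between whole kidneys of NICD1 mice and of littermate controls, 3 arrays a group. The genes were chosen by name: the subunits Nfkb1, Nfkb2, Rela, Relb and Rel, the inhibitors and co-regulators of the IkB family Nfkbia, Nfkbie, Nfkbiz and Bcl3, and the ubiquitin-editing enzyme Tnfaip3. Of these 10 genes, 9 were measured among 19937 genes in all, each by a single probe set, and Nfkb1 was not analysed here. NICD1 mice have the genotype Pax8rtTA TREICNotch1, a transgene pair in which the Pax8 promoter drives an activator that can be induced to switch on Notch1's intracellular domain, the part of the receptor that signals in the nucleus, in tubule epithelial cells. Controls were labelled wild-type with a normal genotype. The inducing agent, its duration and the age of the mice are not given in the sources used here. The study as a whole is about Notch signalling in kidney cancer of the clear cell type. Nothing in the labels says whether the 3 samples of a group came from separate animals, so p-values measure the spread between these samples, which may be technical.

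NF-kB is a family of transcription factors that act as dimers. At rest the dimers are held in the cytoplasm by IkB proteins, and the IkB kinase complex frees them by marking IkB for destruction after signals from receptors such as those for TNF and interleukin-1. In a second branch, the alternative pathway, the NF-kB-inducing kinase triggers processing of the Nfkb2 product, which then pairs with Relb. Several of the genes that NF-kB switches on encode its own subunits and inhibitors, so their transcripts can change with pathway activity. In the kidney the pathway is known for its part in inflammation after tubule injury.

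All 9 measured genes rose in NICD1 kidneys, by 0.72 to 1.75 on the log2 scale, and 0 fell (limma, Benjamini-Hochberg adjusted p under 0.05 over all genes). Before adjustment, 9 were higher and 0 lower at p under 0.05, against 21.7% and 18.0% of all genes. The gene with the largest rise was Nfkbiz, at 3.36-fold, and the gene with the smallest was Rel, at 1.65-fold. At the adjusted threshold, 17.8% of all genes tested were called higher and 14.9% lower. In 9 of 9 genes every NICD1 array lay above every control array, an arrangement found in 23.7% of all genes. Rises of at least 2-fold were measured for 7 of the 9, against 4.65% of all genes. The median difference of the 9 was 1.30 log2, beside 0.01 over all genes. Values are log2 expression after RMA normalization, all differences are NICD1 minus control, and every adjusted p below comes from the same limma fit with n = 3 a group.

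**Figure D1:**
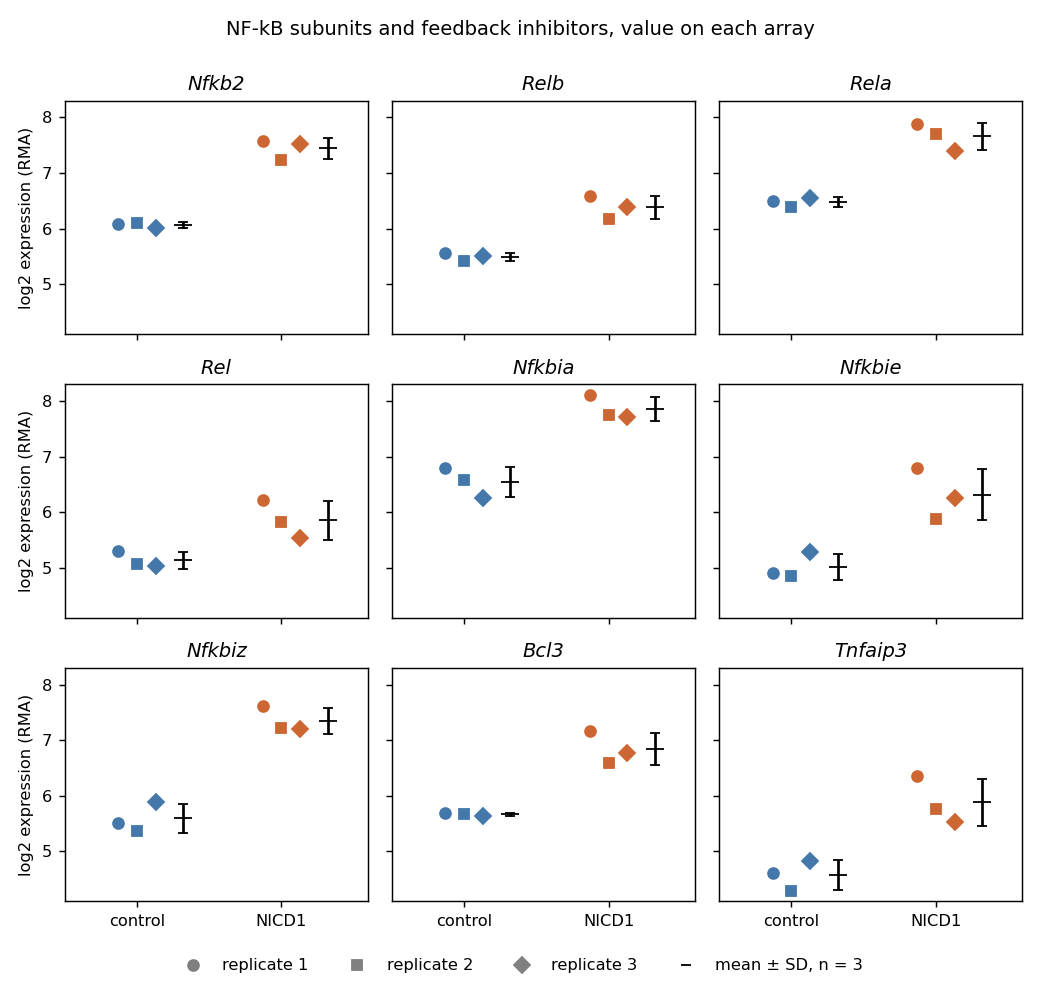
Log2 expression (RMA values, vertical axis) of the 9 measured NF-kB genes on each of the 3 control and 3 NICD1 arrays, with a marker shape for each replicate number and bars for mean ± SD (n = 3). In each panel the 3 NICD1 values lie above the 3 control values, with the narrowest gap for Rel, and NICD1 replicate 1 is the highest array.

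The labels and the tissue were checked first. Notch1 stood at 6.56 ± 0.11 (SD, n = 3) in controls and 10.19 ± 0.18 in NICD1 kidneys, a 12.4-fold difference (adjusted p = 1.52e-07), read from a probe set that may or may not lie within the transgene. Markers of proximal tubule and distal nephron were bright in controls, at up to 12.35 and 12.21 log2, as kidney tissue has them. All 8 proximal tubule markers fell in NICD1 kidneys, as did 6 of 8 distal nephron markers, while 2 rose. Of all genes, 14.9% were called lower and 17.8% higher. In whole kidney, fewer cells of a type and less RNA per cell cannot be told apart. The median over genes was 5.26 to 5.29 log2 on control arrays and 5.38 to 5.41 on NICD1 arrays, and centring the arrays on these medians took the median of all differences from 0.01 to -0.11. After centring, the 9 NF-kB genes were still all called higher, with differences from 0.60 for Rel to 1.63 for Nfkbiz, where 13.0% of all genes were called higher and 20.0% lower.

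Among the subunits, both genes of the alternative pathway rose. Nfkb2 encodes a precursor that serves as an inhibitor until it is processed into a DNA-binding subunit. It stood at 6.09, 6.10 and 6.01 in control replicates 1 to 3 and at 7.58, 7.22 and 7.52 in NICD1 replicates 1 to 3. The groups were far apart against a spread of 0.05 (SD) in controls and 0.19 in NICD1, and the difference was 1.38 log2 (SE 0.12, 95% interval 1.11 to 1.65, 2.60-fold, adjusted p = 2.29e-05). Relb, the partner of the processed Nfkb2 product, measured 5.56, 5.42 and 5.50 in controls and 6.58, 6.17 and 6.39 in NICD1 kidneys. Its groups did not overlap either, although the lowest NICD1 value was within 0.61 log2 of the highest control, and its difference was 0.89 log2 (SE 0.12, 95% interval 0.61 to 1.17, adjusted p = 0.000452).

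The promoters of these genes are shown because NF-kB is known to act on several of its own genes. Sequences are those of RefSeq on build GRCm38.p6, read 5′ to 3′ on the gene's strand, and capitals mark matches to the kappaB decamer consensus on either strand. Of the 9 measured genes, 7 had promoter windows, running from 250 bases before to 50 bases after an annotated start: Nfkb2 with 3 starts, Tnfaip3 with 2, and Rela, Rel, Nfkbia, Nfkbie and Bcl3 with 1 each. Nfkb2 held a pair of separate matching stretches just before its first start and another just after its second.
Nfkb2, first start, chr19:46304677-46304736, plus strand: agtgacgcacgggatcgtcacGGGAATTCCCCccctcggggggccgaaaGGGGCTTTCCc
Nfkb2, second start, chr19:46305695-46305724, plus strand: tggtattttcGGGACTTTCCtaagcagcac
In the first of these the matches began 39 and 38 bases before the start, overlapping and on both strands, and 11 bases before it. In the second the match covered bases 11 to 20 after the start, and the same stretch lies 225 bases before the third start. The second start's window held a further match 236 bases before it, which is not printed.

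Rela and Rel, the measured subunits of the canonical pathway, rose as well. Rela, which carries the main activating domain of the family, measured 6.50, 6.38 and 6.55 in controls and 7.89, 7.70 and 7.40 in NICD1 kidneys. All 3 NICD1 arrays were higher by more than the spread of either group, and the difference was 1.19 log2 (SE 0.13, 95% interval 0.88 to 1.49, 2.27-fold, adjusted p = 0.000129). The window of Rela held no match to the consensus. Rel, the subunit best known from lymphoid and myeloid cells, measured 5.30, 5.08 and 5.02 in controls and 6.22, 5.82 and 5.53 in NICD1 kidneys. It had the narrowest gap of the 9 genes, 0.22 log2 between NICD1 replicate 3 and control replicate 1, with a difference of 0.72 log2 (SE 0.17, 95% interval 0.33 to 1.10, adjusted p = 0.00959). Without NICD1 replicate 1 its difference was 0.54, and over all alternatives its adjusted p lay between 0.00233 and 0.0412. The matches in its promoter began 92 and 91 bases before the start and overlap each other.
Rel, chr11:23771020-23771079, minus strand: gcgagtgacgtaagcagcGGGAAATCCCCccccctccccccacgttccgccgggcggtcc

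Nfkbia and Nfkbie, inhibitors that hold dimers in the cytoplasm, both rose. Nfkbia encodes IkB alpha, the inhibitor that is rapidly destroyed and remade in each round of signalling. Its values were 6.79, 6.58 and 6.25 in controls and 8.11, 7.76 and 7.70 in NICD1 kidneys. The SD was 0.27 in controls and 0.22 in NICD1 kidneys, and the groups were 0.92 log2 apart at their nearest values. The difference was 1.32 log2 (SE 0.16, 95% interval 0.95 to 1.68, 2.49-fold, adjusted p = 0.000215). Nfkbie encodes IkB epsilon, a slower-acting inhibitor of the same kind, and measured 4.90, 4.86 and 5.28 in controls and 6.80, 5.88 and 6.26 in NICD1 kidneys. NICD1 arrays were spread over 0.91 log2, more than for any other of the 9 genes, with a difference of 1.30 log2 (SE 0.22, 95% interval 0.81 to 1.79, adjusted p = 0.00135). Both promoters held 1 match, 29 bases before the start of Nfkbia, on the opposite strand, and 106 bases before that of Nfkbie.
Nfkbia, chr12:55492648-55492707, minus strand: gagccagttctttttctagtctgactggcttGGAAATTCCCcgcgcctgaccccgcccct
Nfkbie, chr17:45555576-45555635, plus strand: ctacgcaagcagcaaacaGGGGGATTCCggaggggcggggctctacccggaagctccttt

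Nfkbiz and Bcl3 encode nuclear members of the IkB family, which bind NF-kB dimers on DNA and can raise or lower transcription there. Nfkbiz measured 5.52, 5.37 and 5.89 in controls and 7.61, 7.22 and 7.20 in NICD1 kidneys. It had the widest gap of the 9 genes, 1.31 log2 between the nearest values, and a difference of 1.75 log2 (SE 0.16, 95% interval 1.38 to 2.12, adjusted p = 3.82e-05). Its interval lies above those of Rel and Relb and overlaps those of the other 6 genes, and differences between genes in the size of the rise were not tested. Bcl3 measured 5.70, 5.67 and 5.63 in controls and 7.16, 6.59 and 6.77 in NICD1 kidneys. Its controls were the tightest of the 9 genes, within 0.06 log2, and its difference was 1.17 log2 (SE 0.14, 95% interval 0.85 to 1.50, 2.26-fold, adjusted p = 0.000214). The match at Bcl3 lay within the transcribed bases, 3 to 12 after the start.
Bcl3, chr7:19822731-19822760, minus strand: gcggcagGGGAAGTCCCgctgcccggcgag

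Tnfaip3 encodes an enzyme that removes and adds ubiquitin on signalling proteins upstream of the IkB kinases and so ends the signal. It measured 4.62, 4.29 and 4.83 in controls and 6.35, 5.77 and 5.52 in NICD1 kidneys. All control values lay under the median of their arrays, and no detection calls were used here, so the fold may be understated by the compression of RMA values near the floor. The difference was 1.30 log2 (SE 0.21, 95% interval 0.82 to 1.78, 2.47-fold, adjusted p = 0.00121). At its first start, matches began 125 and 12 bases before it, and the nearer one is printed. The window of its other start held none.
Tnfaip3, chr10:19015411-19015470, minus strand: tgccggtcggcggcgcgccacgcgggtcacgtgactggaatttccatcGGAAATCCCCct

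In all, 8 of the 10 windows of these genes, and 6 of the 7 genes, held the kappaB decamer consensus, which 4.51% of all 32851 promoter windows of the same length held. Of the 15613 genes on the array with a window, 5.75% held it in at least 1. The motif TGGGAA, the core bound by the Notch partner Rbpj, was found on either strand for 2 of the 7, Rel and Tnfaip3, against 27.1% of the genes on the array with a window. The windows of these genes were 47.0% to 75.0% G or C, with a median of 65.2%, and those of all genes had a median of 52.7%. A match describes letters in the window and does not show that a factor was bound in these kidneys.

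**Figure D2:**
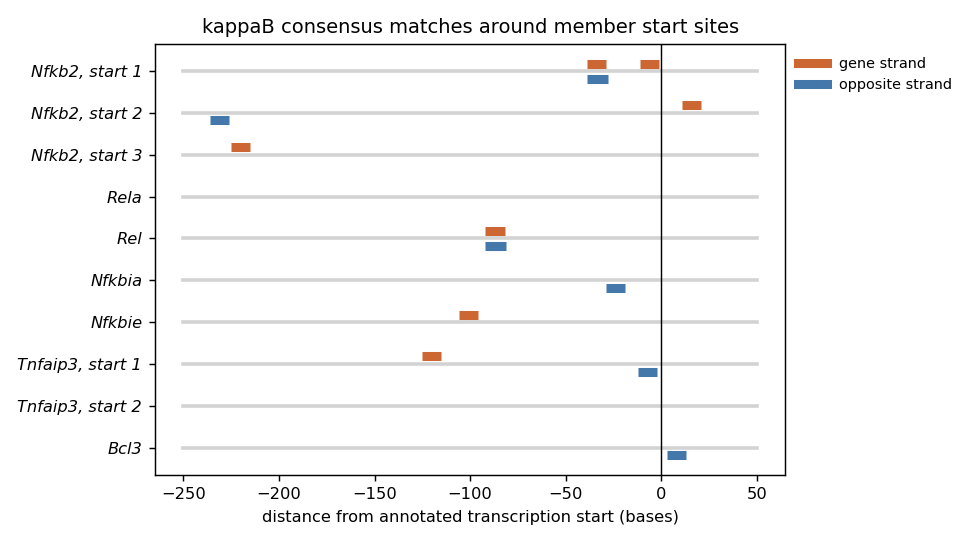
Positions of matches to the kappaB decamer consensus (bars) in bases from the annotated transcription start (horizontal axis), for the 10 promoter windows of 7 NF-kB genes, with the gene's strand and the opposite strand drawn apart. Matches appear in 8 windows, and those of Nfkb2 (first and second starts), Nfkbia, Tnfaip3 and Bcl3 include one within 40 bases of the start, while the windows of Rela and the second start of Tnfaip3 are empty.

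The rises were not equal across the NICD1 arrays. NICD1 replicate 1 was the highest of the 3 for 9 of 9 genes, whereas it was the highest for 56.7% of the 3551 genes called higher. The lowest array was replicate 2 for 4 of the genes, Nfkb2, Relb, Nfkbie and Bcl3, and replicate 3 for the other 5. Averaged over the 9 genes, the arrays lay 1.53, 1.06 and 1.08 log2 above the control mean in NICD1 replicates 1 to 3, and controls between -0.09 and 0.05. Leaving out NICD1 replicate 1 kept all 9 calls.

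Markers of myeloid cells were also higher in NICD1 kidneys and, like these genes, highest in NICD1 replicate 1. Of 10 such markers, 9 (90%) rose and 0 fell, beside 17.8% and 14.9% of all genes. Before adjustment 9 were higher and 0 lower, beside 21.7% and 18.0% of all genes, and Csf1r differed by -0.05. Their summed linear level was 377 to 442 in controls and 3042, 1622 and 1630 in NICD1 replicates 1 to 3. In NICD1 kidneys most of this sum was Lyz2 and Ctss, which rose by 3.94 and 3.79 log2, beside a list median of 1.67. All 10 markers were highest in replicate 1, as were 56.7% of the 3551 genes called higher. The sum of the proximal tubule markers was lowest in that array, at 1142, 2021 and 2312 in NICD1 replicates 1 to 3, beside 17225 to 17517 in controls. Lymphocyte markers summed to 121 to 122 in controls and 150 to 177 in NICD1 kidneys. The higher sum came from Cd8a, at 4.59, 4.73 and 4.04 log2 in controls and 6.37, 5.69 and 5.43 in NICD1 replicates 1 to 3. The median difference of the 7 measured was 0.05 log2. Of the 7, 2 rose and 1 fell, shares of 28.6% and 14.3% beside 17.8% and 14.9% of all genes. Neutrophil markers summed to 69.1 to 70.9 and 73.6 to 80.2, and 1 of 6 (16.7%) rose, near the 17.8% of all genes. Endothelial markers summed to 822 to 871 and 342 to 578, and 3 of 6 (50%) fell, beside 14.9% of all genes. RMA values have no true 0. Neutrophil markers lay between 2.50 and 4.32 log2 over all arrays, and lymphocyte markers between 2.38 and 5.14, apart from Cd8a, which reached 6.37 in NICD1 replicate 1. The part of these cells in the rise of the NF-kB genes was not tested.

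**Figure D3:**
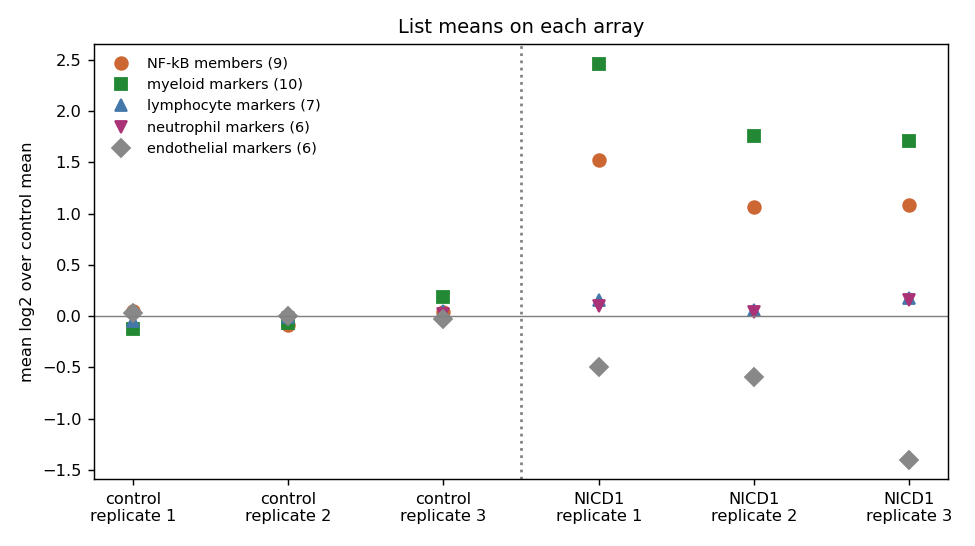
Mean log2 level over the control mean (vertical axis) of the 9 NF-kB genes and of 4 marker lists on each of the 6 arrays. The NF-kB genes and the myeloid markers are both highest in NICD1 replicate 1, at 1.53 and 2.46, while lymphocyte and neutrophil markers stay under 0.18 and endothelial markers are lowest in NICD1 replicate 3.

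Upstream of the members, 12 of 25 measured kinases and adaptors rose and 0 fell, while 13 missed the threshold (median difference 0.32 log2). These shares of 48.0% and 0% stand beside 17.8% and 14.9% of all genes. Before adjustment, 14 were higher and 1 was lower, where 21.7% and 18.0% of all genes were. The lower gene was Irak2 (-0.42, adjusted p = 0.0729). The adaptor Traf2, which links TNF receptors to the IkB kinases, rose from 6.74 ± 0.02 to 7.74 ± 0.04 (adjusted p = 3.61e-05), and its relative Traf5 2.01-fold. Myd88, the adaptor of Toll-like and interleukin-1 receptors, rose from 6.25 ± 0.16 to 7.47 ± 0.09, and the ubiquitin ligase Birc3, itself a known NF-kB target, by 1.42. Kinases of both branches were measured, but Chuk, Ripk1, Irak4 and Traf3 of this list were not analysed. Map3k14, the NF-kB-inducing kinase of the alternative pathway, rose by 1.10 log2 (95% interval 0.78 to 1.42, adjusted p = 0.000293). Ikbkb, the main catalytic subunit of the IkB kinase complex, rose by 0.40 (95% interval 0.17 to 0.62, adjusted p = 0.0128), a call lost after centring (0.28) and without control replicate 2 (0.39). Ikbkg, the regulatory subunit of that complex, differed by 0.05 (95% interval -0.21 to 0.31, adjusted p = 0.815).

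Of 12 other inhibitors, 5 (41.7%) rose and 2 (16.7%) fell, beside 17.8% and 14.9% of all genes, while 5 missed the threshold (median 0.26 log2). The share that fell is thus near that of all genes. The ribonuclease Zc3h12a, which destroys inflammatory transcripts, rose by 0.70 log2, and Tnip1 and Tnip2, ubiquitin-binding partners of the Tnfaip3 product, rose by 0.68 and 0.76 (adjusted p = 0.00137 and 0.00491). The deubiquitinase Cyld fell by 0.43 (adjusted p = 0.0250) and Commd1, which promotes removal of the Rela product, by 0.41 (adjusted p = 0.0299). The call of Cyld was lost in 5 of 15 alternatives and that of Commd1 in 6, with leaving out control replicate 2 or 3 or NICD1 replicate 3 among them for both. Nfkbib, the inhibitor IkB beta, stood at 7.38 ± 0.11 in controls and 7.31 ± 0.10 in NICD1 kidneys (-0.07, 95% interval -0.31 to 0.17, adjusted p = 0.710). Within the IkB family, Nfkbia and Nfkbie thus passed as higher and Nfkbib did not pass, and the difference between them was not tested. Nfkbid, a further nuclear member, was 0.30 log2 higher (adjusted p = 0.049996), a call lost in 12 of the 14 alternatives that kept the gene. It was lost without any single array other than NICD1 replicate 2, and after centring the difference was 0.18.

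Of 19 ligands and receptors of the pathway, 9 rose and 1 fell, while 9 missed the threshold (median 0.35 log2), shares of 47.4% and 5.26% beside 17.8% and 14.9% of all genes. Both TNF receptors rose, Tnfrsf1a from 7.11 ± 0.08 to 8.13 ± 0.14 (adjusted p = 9.62e-05) and Tnfrsf1b from 4.73 ± 0.17 to 6.22 ± 0.14 (adjusted p = 2.01e-05). Tnfrsf12a and Cd40, receptors that can feed the alternative pathway, rose by 1.03 and 0.76 log2. Of other receptors of this kind, Ltbr rose by 0.35 (adjusted p = 0.0180), a call lost at a threshold of 0.01. Its values under the other alternatives are not reported here. Tnfrsf11a and Tnfrsf13c missed the threshold (both 0.17, adjusted p = 0.515 and 0.450). The interleukin-1 receptor chain Il1rap fell by 0.70 log2 (adjusted p = 0.0103). The ligand gene Tnf stood at 4.52, 4.23 and 3.82 in controls and 4.83, 4.78 and 4.97 in NICD1 kidneys (0.67, adjusted p = 0.0125), under the median of every array. Il1b was 0.71 log2 higher (adjusted p = 0.0255), a call lost in 5 of the 14 alternatives that kept the gene, among them leaving out control replicate 2 (0.59) or control replicate 3 (0.76). Without NICD1 replicate 1 its difference was 0.46.

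Of 25 known target genes of NF-kB, 15 rose and 3 fell, while 7 missed the threshold (median 0.64 log2), shares of 60.0% and 12.0% beside 17.8% and 14.9% of all genes. The adhesion molecules Vcam1 and Icam1, which hold leukocytes to activated cells, rose 9.30-fold and 3.29-fold (adjusted p = 7.71e-06 and 4.14e-05). The chemokines Cxcl10 and Ccl5 rose by 2.55 and 2.37 log2, and Lcn2, the iron-carrier protein that marks tubule injury, by 5.98. The targets that fell were bright in controls: mitochondrial superoxide dismutase Sod2 went from 10.34 ± 0.03 to 8.73 ± 0.06 (adjusted p = 3.13e-06), complement factor Cfb fell by 0.83 and Cflar, an inhibitor of death-receptor caspases, by 0.68. With the mean over its probe sets Cflar fell by 0.44 (adjusted p = 0.0435). These falls stand beside the fall of all 8 proximal tubule markers, and the part of tubule cell content in them was not tested. Il6 stood at 2.44 ± 0.20 and 2.75 ± 0.10, near the floor of the arrays (adjusted p = 0.0945), and passed as higher without control replicate 3. Many of these genes are also switched on by other factors.

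**Figure D4:**
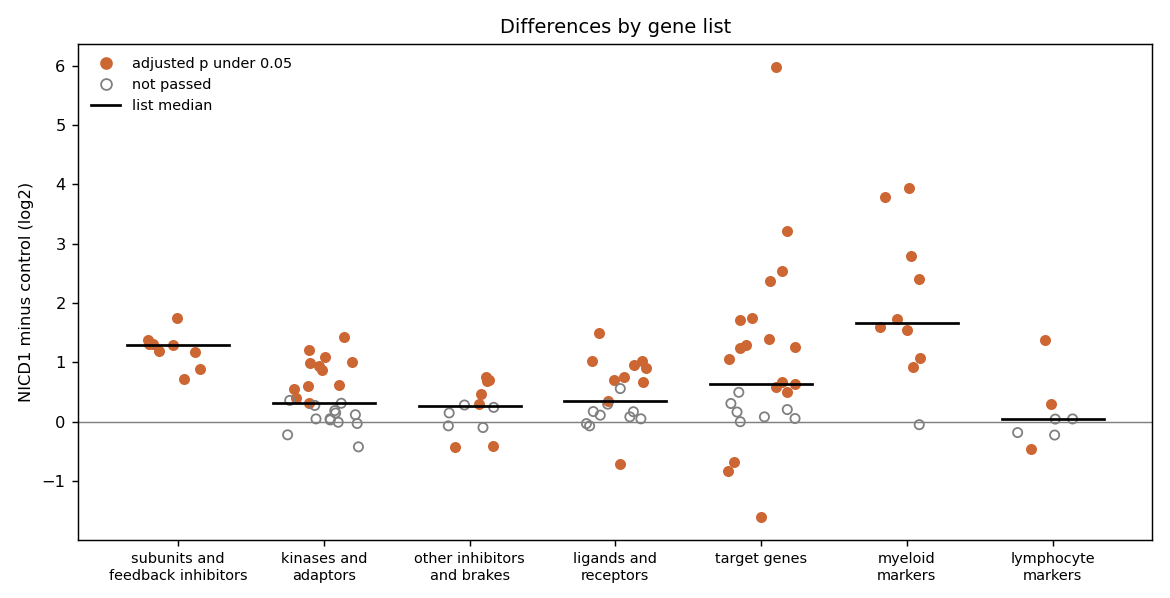
NICD1 minus control differences (log2, vertical axis) of single genes in the NF-kB members, 4 lists of pathway genes and the myeloid and lymphocyte markers, filled where the adjusted p was under 0.05, with a bar at each list's median. The 9 members lie between 0.72 and 1.75, while each pathway list also holds genes near 0, and target genes spread from -1.61 (Sod2) to 5.98 (Lcn2).

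None of the 15 alternatives run ended a call among the 9 genes. At an adjusted p under 0.01 all 9 were still called, where 12.0% of all genes were higher and 11.0% lower. The lowest differences over these alternatives were 0.54 for Rel, 0.77 for Relb and 1.01 for Bcl3. For Rela, Nfkbie and Tnfaip3 they were 1.06, 1.06 and 1.07, and for Nfkbia, Nfkb2 and Nfkbiz 1.17, 1.26 and 1.62.

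**Figure D5:**
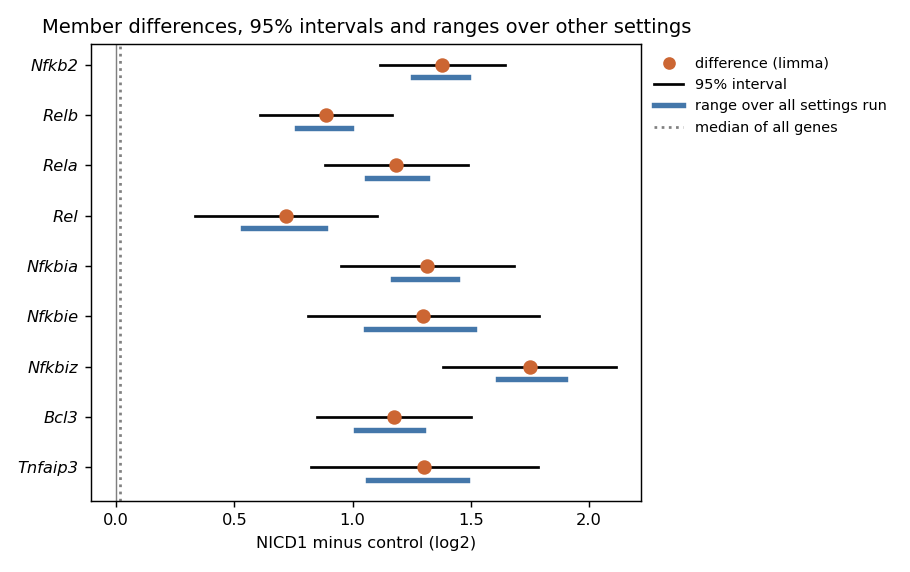
NICD1 minus control difference (log2, horizontal axis) of each NF-kB gene as a point with its 95% interval from limma (n = 3 a group), and below it the range of the difference over all settings run, with a dotted line at the median of all genes. All intervals and ranges lie above 0, from Rel at the low end, with 0.33 as the lower bound, to Nfkbiz at the high end.

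Likeness to other genes was measured as the root mean square distance between array profiles, each centred on its control mean, over the 6 arrays. The nearest gene was Spib for Bcl3 (0.039), Ppp1r9a for Relb (0.040), B4galnt1 for Rela (0.041), Stom for Rel (0.050) and Grhl2 for Nfkbia (0.052). For Nfkb2 it was Psmb9 and for Nfkbie Trim6 (both 0.075), for Tnfaip3 Sgo2a (0.106) and for Nfkbiz Apobec1 (0.111). Such profiles were not particular to these genes: of 19937 genes, 232 lay within 0.15 log2 of Relb and 139 of Rel. The counts were 89 for Rela, 65 for Bcl3, 63 for Nfkb2 and 35 for Nfkbia, but 8 for Nfkbiz, 7 for Nfkbie and 6 for Tnfaip3. Profiles were not scaled to the size of the difference, which was smallest for Rel and Relb.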

How the data were processed

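In 6 samples, whole-kidney RNA was hybridised to Affymetrix arrays. Per the labels' protocols, the authors normalized the arrays in GeneSpring with RMA16, and the deposited values are log2 expression per probe set. RMA compresses dim genes and removes most of a shift common to all genes. The GeneSpring version, scan dates and batches are not given in the sources used here. Of 34760 probe sets, 6573 below the lowest annotated number were left out. A gene was represented by its brightest single-symbol probe set on average (platform annotation), which gave 19937 genes, with no filter on low values. The test was limma's, version 3.58.1, under R 4.3.3 (lmFit and eBayes, two-sided, Benjamini-Hochberg over all genes, threshold 0.05), a procedure tested on simulated data. The members and lists were chosen with earlier results of these data known. Named were all members, the 4 genes of each pathway list with the lowest p, every gene of these lists called lower, Notch1, and the nearest profile of each member. Ikbkb, Ikbkg, Map3k14, Irak2, Nfkbib, Nfkbid, Tnf, Il1b, Il6, Icam1, Cxcl10, Ltbr, Tnfrsf11a, Tnfrsf13c and the single cell type markers were named after their values were seen. Of 88 genes in the pathway lists, 81 were measured. With 3 arrays a group, the number of arrays limits the precision.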

Additional observations from a re-analysis of the deposited data

How the results depend on the processing

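The alternatives were the mean over probe sets, quantile normalization, centring of arrays, a filter on the dimmest 40% of genes, array weights, an intensity-trended robust variance, the replicate number as a block, all probe sets in the adjustment, a threshold of 0.01, and leaving out each array in turn. The count of 9 higher members was the same in all 15. Centring changed the calls of all genes from 3551 higher and 2978 lower to 2594 and 3990, so the higher share went from 54.4% to 39.4%. The kinases and adaptors had 1 lower call under quantile normalization, centring and the replicate block, and 0 to 1 when single arrays were left out. Among the 12 other inhibitors, 3 were higher after centring, with all probe sets and at a threshold of 0.01, and 0 were lower under the last 2 of these. Leaving out single arrays gave 3 to 5 higher and 0 to 2 lower. Of the 19 ligands and receptors, 5 were higher and 0 lower at 0.01. Of all 19937 genes, 13.0% were higher and 20.0% lower after centring, and 12.0% and 11.0% at 0.01. With all probe sets 2943 were higher and 2563 lower, and under quantile normalization 3406 and 3161. Leaving out single arrays gave 2816 to 3488 higher and 2459 to 2811 lower among all genes. Ikbkg turned to -0.054 under quantile normalization and -0.074 after centring, and ranged from -0.050 to 0.101 without single arrays. The causes of these changes were not tested. Arrays with the same replicate number did not deviate together (correlations over genes of -0.07, -0.01 and -0.07). With 3 arrays a group, this cannot settle whether the numbers pair the samples. With the replicate block, 3219 genes were higher and 2762 lower, all 9 members among the former.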
